A study of Homo sapiens with 12 samples.

Results

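The genes of 10 transcription factors that establish or maintain epithelial identity were followed across sorted pancreatic carcinoma cells, namely GRHL1, GRHL2, GRHL3, OVOL1, OVOL2, ELF3, EHF, KLF4, KLF5 and TP63. They were taken by gene symbol from an expression table of 23346 genes. All 10 were listed, and all 10 were among the 16236 genes kept for testing. The rule uses no measured value, but the 10 factors and the gene lists below were chosen with earlier results of these data known. Their counts, also beside the share of all genes, are therefore descriptions and not independent evidence. The study moreover singled out GRHL1, GRHL2 and GRHL3 on these same samples, so that the direction of these 3 is not independent evidence. The RNA came from SW1990 and CFPAC-1, both established human pancreatic adenocarcinoma lines, after cells had been sorted with GCTM-5, an antibody to a surface glycoprotein complex of pancreatic carcinoma and duct cells. The 4 groups were GCTM-5 negative and GCTM-5 positive SW1990 cells and GCTM-5 negative and GCTM-5 positive CFPAC-1 cells, with 3 samples each and 12 in all. Cells of every group had been through the same culture, staining and sorting, and only the unstained and the strongly stained ends of each line were collected. The paper describes sorts in triplicate but the labels do not say that samples came from separate cultures, so p-values measure the spread between these samples, which may be technical. In bulk samples like these, fewer expressing cells and less RNA per cell cannot be told apart. Each line stands for a single tumour, and a difference between the lines cannot be told apart from one between their cultures.

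Grainyhead-like proteins (GRHL1, GRHL2 and GRHL3) bind the control regions of adhesion and junction genes in epithelia and keep them active. OVOL1 and OVOL2 are zinc finger repressors known to hold down ZEB1, itself a repressor of E-cadherin, so that the OVOL and ZEB factors oppose each other in the transition between epithelial and mesenchymal states. ELF3 and EHF are ETS family factors of glandular and surface epithelia, KLF4 and KLF5 are Krüppel-like zinc finger factors of gut and skin epithelium, and TP63 is the factor that defines the basal cells of stratified epithelia. Pancreatic ducts are lined by a simple epithelium, in which TP63 is normally absent.

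Levels are given as RPKM, reads scaled to gene length and library size, and differences as differences in log2(RPKM + 0.1) with the standard error (SE) from limma, a scale that understates the change of genes near 0.1 RPKM. Calls needed a change of more than 2-fold and an unadjusted p under 0.01, the thresholds of the study, and a Benjamini-Hochberg adjusted p under 0.05 over all 16236 genes is given as a second criterion. An exact permutation test of 3 against 3 samples cannot give a p below 0.1. Library totals ran from 9969697 reads in CFPAC-1 positive replicate 3 to 26159330 reads in CFPAC-1 positive replicate 1. Duct epithelium was present in all 12 samples, although CFTR was at 0 in every SW1990 sample. The 8 duct markers summed to 1625 to 1975 RPKM in negative SW1990 samples against 4293 to 4799 RPKM in positive ones, and 4 of the 7 tested (EPCAM, KRT8, KRT18 and KRT19) were called higher. In CFPAC-1 the duct sums were 5510 to 6270 and 6738 to 8235 RPKM. Markers of other cell types also moved with the sort in SW1990. The 7 fibroblast markers summed to 12.7 to 22.6 RPKM in negative and 3.90 to 4.88 RPKM in positive SW1990 samples, carried by LUM, PDGFRB and COL1A1, while COL3A1 and DCN held at most 2 reads in any library. The 4 endothelial markers summed to 14.8 to 18.8 and 1.48 to 2.05 RPKM, carried by CDH5, with KDR at 0 in negative cells. Among the 4 leukocyte markers only CD68 reached a mean of 1 RPKM, and CD3E was at 0 in all SW1990 samples. CD68 was called lower in positive SW1990 cells (-1.02, adjusted p = 0.00883), where the leukocyte sums were 34.1 to 46.9 RPKM without and 15.2 to 32.9 RPKM with the antigen. In CFPAC-1 the fibroblast sums were 1.42 to 2.40 RPKM and the endothelial sums 0.751 to 1.49 RPKM over both populations. The leukocyte sums in CFPAC-1 were higher than in SW1990, at 110.5 to 127.7 RPKM in negative and 109.3 to 162.9 RPKM in positive samples. CD68 carried them, at means of 119.9 and 138.3 RPKM. The acinar and endocrine lists each summed to at most 0.295 RPKM in any sample. The part of these markers in the results below was not tested.

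In SW1990, 6 of the 10 factors were called higher in GCTM-5 positive cells, against 4.59% of all genes tested, and 0 were called lower, against 7.48%, with 0 lower at an unadjusted p under 0.05 by limma and 1 (TP63) by voom on recovered reads. These 6 were GRHL1, GRHL2, GRHL3, OVOL1, OVOL2 and ELF3. By adjusted p alone 9 of the 10 were higher, all but TP63, against 11.3% of all genes, with EHF, KLF4 and KLF5 added at changes under 2-fold. The median log2 difference of the 10 was 1.45, beside -0.04 over all genes. In CFPAC-1, 2 of the 10 were called higher, GRHL1 and GRHL2, against 5.65% of all genes, and 0 were called lower, against 4.13%, while 3 were lower at an unadjusted p under 0.05 by limma as by voom. By adjusted p alone 4 were higher (GRHL1, GRHL2, GRHL3 and OVOL2), against 22.3% of all genes, and 3 were lower (ELF3, EHF and KLF5), against 14.2%. The median log2 difference of the 10 in CFPAC-1 was 0.22, beside 0.05 over all genes.

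**Figure D1:**
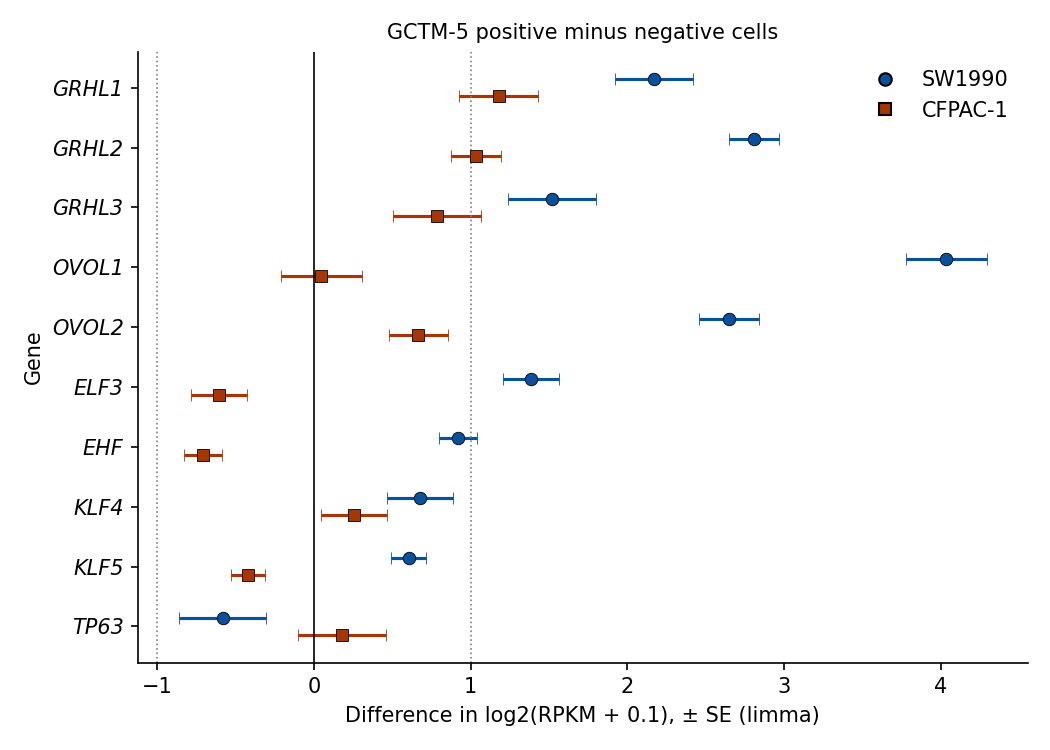
Difference in log2(RPKM + 0.1) between GCTM-5 positive and negative cells for the 10 factors, in SW1990 (circles) and CFPAC-1 (squares). Bars are the standard error from limma, and dotted lines mark 2-fold. In SW1990 9 of 10 points lie above 0, whereas in CFPAC-1 ELF3, EHF and KLF5 lie below 0 and OVOL1 lies at 0.05.

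The grainyhead-like genes were the factors whose fitted change had the same sign and passed the adjusted threshold in both lines along with OVOL2. GRHL2 (chr8:102504667-102681954, plus strand, GRCh37), the family member best known for sustaining E-cadherin and claudin expression, was the most abundant of the 3. Its level was 4.86, 3.62 and 5.62 RPKM in the 3 negative and 34.1, 31.4 and 33.5 RPKM in the 3 positive SW1990 samples. In CFPAC-1 it was 12.5, 14.3 and 14.4 RPKM in negative and 33.6, 28.6 and 23.4 RPKM in positive samples. Every positive sample was above every negative sample of its line, and the positive samples of the lines overlapped, with negative SW1990 cells lowest. The log2 difference of GRHL2 was 2.81 (SE 0.16, adjusted p = 2.52e-07) in SW1990 and 1.04 (SE 0.16, adjusted p = 0.000534) in CFPAC-1. The CFPAC-1 change sat at the 2-fold boundary. It came to 0.97 without CFPAC-1 negative replicate 1 and to 0.91 without CFPAC-1 positive replicate 1, with adjusted p of 0.00320 and 0.00295, so that the fold criterion was lost and the adjusted threshold was not. It was also under 2-fold with a pseudocount of 1, median centring and quantile normalization. The fitted change of GRHL2 was larger in SW1990 than in CFPAC-1 by 1.77 (SE 0.23, adjusted p = 0.000183).

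GRHL1 (chr2:10091822-10142405, plus strand), a regulator of desmosomal cadherin genes in skin, showed the same order of groups at a lower level. It was at 0.513, 0.441 and 0.972 RPKM in negative and 2.65, 3.55 and 3.13 RPKM in positive SW1990 samples. CFPAC-1 gave 0.912, 0.901 and 1.04 RPKM in negative and 2.67, 2.44 and 1.81 RPKM in positive samples. Positive and negative samples did not overlap in either line, while the negative samples of the 2 lines did, as did the positive ones. GRHL1 rose by 2.17 on the log2 scale (SE 0.25, adjusted p = 5.28e-05) in SW1990 and by 1.18 (SE 0.25, adjusted p = 0.00403) in CFPAC-1, where it was under 2-fold with a pseudocount of 1 (0.75). The difference between these changes, 0.99 (SE 0.36), had an adjusted p of 0.0612, which was below 0.05 in 4 of 21 other fits and reached 0.00849 without SW1990 negative replicate 3, the negative sample with the highest GRHL1 level.

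GRHL3 (chr1:24526048-24690972, plus strand), which acts in the late differentiation of the epidermis and urothelium, was the least abundant grainyhead-like gene. Its levels were 0.142, 0.201 and 0.165 RPKM in negative and 0.422, 0.792 and 0.874 RPKM in positive SW1990 samples, on 10 to 16 and 28 to 53 reads. CFPAC-1 samples held 0.315, 0.281 and 0.322 RPKM without and 0.715, 0.420 and 0.703 RPKM with the antigen, on 21 to 22 and 24 to 64 reads. The groups did not overlap within a line, but the positive samples of both lines spanned about the same range. The log2 difference in SW1990 was 1.52 (SE 0.28, adjusted p = 0.00155), and it shrank to 0.53 with a pseudocount of 1. In CFPAC-1 the value was 0.78 (SE 0.28, adjusted p = 0.0468) and borderline, since the adjusted p was over 0.05 in 15 of 21 other fits. Among these were the fits without CFPAC-1 negative replicate 1, 2 or 3 (0.0899, 0.119 and 0.0916) and without CFPAC-1 positive replicate 1 or 3 (0.143 and 0.107). GRHL3 was thus not called in CFPAC-1 (unadjusted p = 0.0168 by limma). The paper, which names another test, lists GRHL3 as higher in positive cells without naming a line. That list follows its count of genes changed in both lines at over 2-fold and p under 0.01. GRHL3 did not meet these thresholds here in CFPAC-1.

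**Figure D2:**
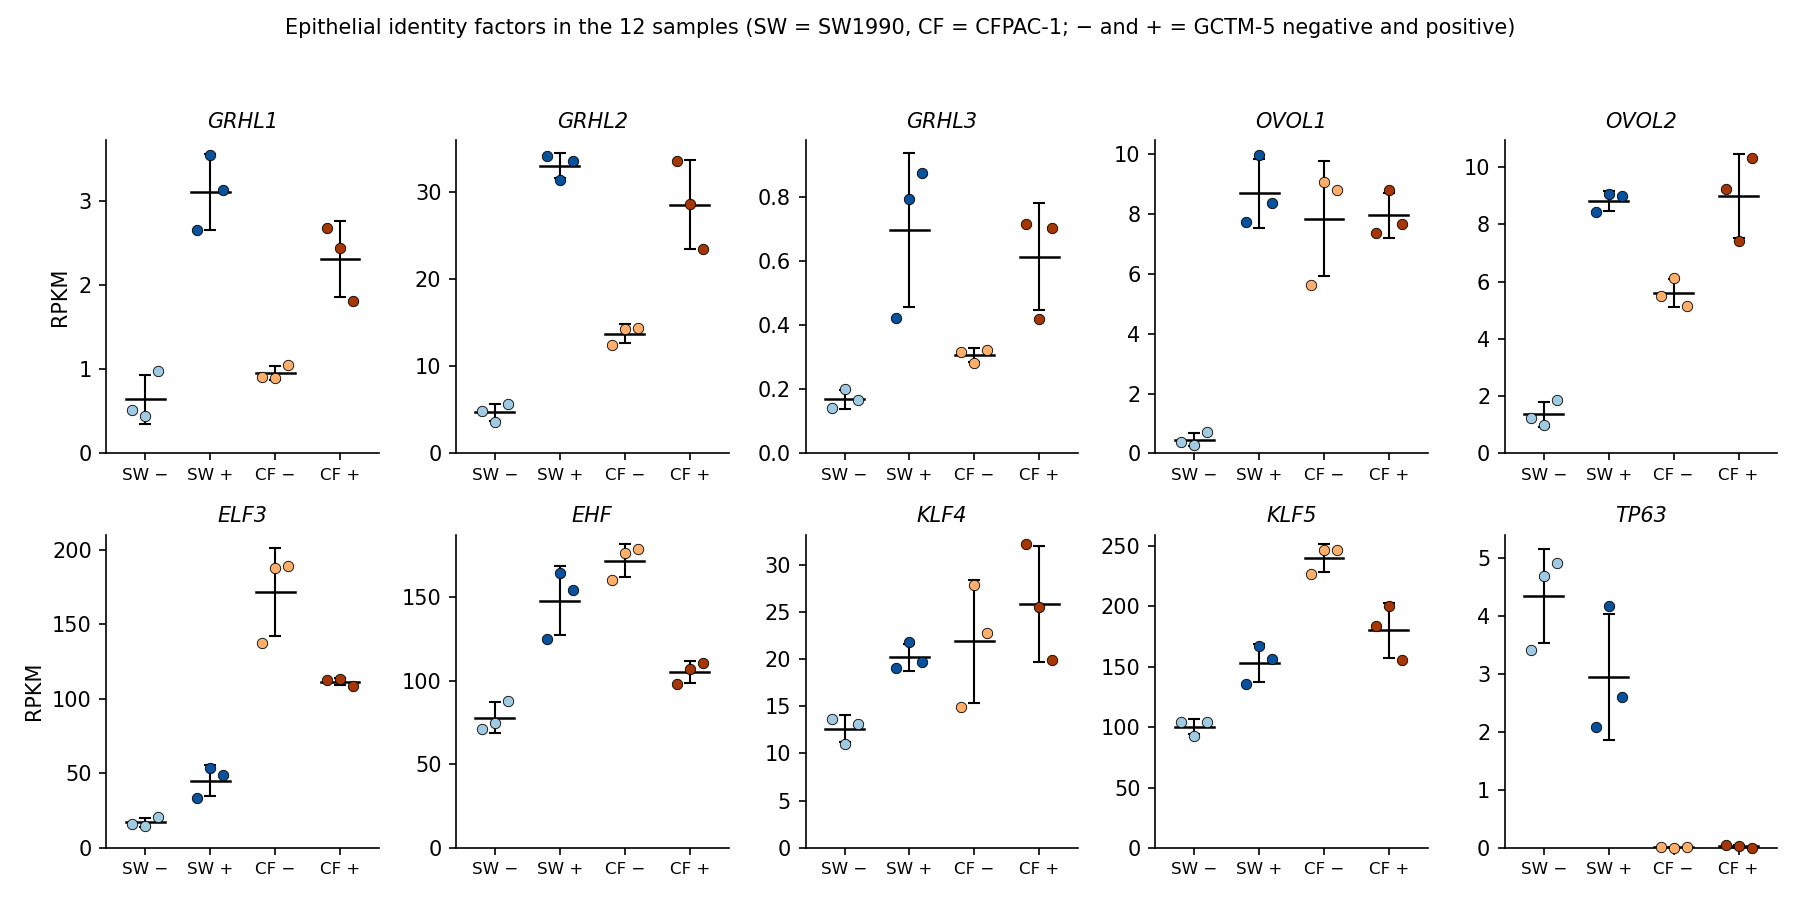
RPKM of each factor in the 12 samples, with GCTM-5 negative (−) and positive (+) cells of SW1990 (SW) and CFPAC-1 (CF) on the horizontal axis and a separate vertical axis from 0 for each gene. Points are samples, horizontal lines are group means and bars are the SD of 3 samples. Negative SW1990 cells are lowest for every gene except TP63, which is near 0 in CFPAC-1.

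The OVOL genes behaved differently in the 2 lines. OVOL1 (chr11:65554534-65564685, plus strand), a direct repressor of mesenchymal genes in epidermal progenitors, was at 0.386, 0.284 and 0.711 RPKM in negative and 7.74, 9.98 and 8.35 RPKM in positive SW1990 samples. The counts behind these values were 20 to 38 and 447 to 512 reads. Negative SW1990 cells thus lay apart from every other group, because CFPAC-1 had 5.63, 9.07 and 8.81 RPKM in negative and 7.36, 8.81 and 7.67 RPKM in positive samples. The 3 groups other than negative SW1990 overlapped throughout. OVOL1 rose by 4.04 on the log2 scale in SW1990 (SE 0.26, adjusted p = 4.86e-07), the largest change of the 10. In CFPAC-1 its difference was 0.05 (SE 0.26, 95% interval -0.52 to 0.61, adjusted p = 0.913), and its sign turned with each sample centred on its median (-0.05), with quantile normalization (-0.06) and without CFPAC-1 negative replicate 1 (-0.17) or CFPAC-1 positive replicate 2 (-0.03). The changes of OVOL1 in the lines differed by 3.99 (SE 0.36, adjusted p = 2.07e-05).

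OVOL2 (chr20:17937623-18039832, minus strand), which sustains epithelial fate in mammary and corneal tissue, was at 1.25, 0.995 and 1.85 RPKM in negative and 8.42, 9.06 and 9.00 RPKM in positive SW1990 samples. CFPAC-1 samples gave 5.48, 6.12 and 5.16 RPKM without the antigen and 9.24, 7.40 and 10.3 RPKM with it. Unlike OVOL1, OVOL2 showed no overlap between positive and negative samples of CFPAC-1. Its log2 difference was 2.65 (SE 0.19, adjusted p = 1.33e-06) in SW1990 and 0.67 (SE 0.19, adjusted p = 0.0190) in CFPAC-1, where the adjusted p was over 0.05 without CFPAC-1 negative replicate 1 or 3 (0.0515 and 0.0680) and without CFPAC-1 positive replicate 1 or 3 (0.0568 and 0.0595). The lines differed in this change by 1.98 (SE 0.27, adjusted p = 0.000329). Some exons annotated to OVOL2 in GENCODE 44 overlap exons of SNX5 on the same strand, and how the authors assigned reads there is not given in the sources used here.

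The ETS factors ELF3 and EHF moved in opposite directions in the 2 lines. ELF3 (chr1:201977073-201986311, plus strand), a factor of glandular epithelium that is induced by inflammatory signals, was at 16.1, 14.5 and 20.6 RPKM in negative and 33.5, 53.4 and 48.6 RPKM in positive SW1990 samples. CFPAC-1 had far more, with 137, 188 and 189 RPKM in negative and 112, 113 and 109 RPKM in positive samples. No pair of groups overlapped, and the order was negative SW1990, positive SW1990, positive CFPAC-1 and negative CFPAC-1. ELF3 rose by 1.39 on the log2 scale in SW1990 (SE 0.18, adjusted p = 0.000129). In CFPAC-1 the difference was -0.60 (SE 0.18, adjusted p = 0.0226), and the adjusted p was over 0.05 without CFPAC-1 negative replicate 2 or 3 (0.0832 and 0.0854) and without CFPAC-1 positive replicate 1 or 3 (0.0537 and 0.0519). The changes differed between lines by 1.99 (SE 0.26, adjusted p = 0.000211).

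EHF (chr11:34642640-34684835, plus strand), a close relative of ELF3 in the epithelial branch of the ETS family, was among the 3 most abundant factors in every group. Its levels were 70.9, 74.8 and 88.1 RPKM in negative and 125, 164 and 154 RPKM in positive SW1990 samples, and the groups were separate. In CFPAC-1 the order was the reverse, at 160, 176 and 179 RPKM in negative and 97.9, 107 and 110 RPKM in positive samples. Here too the groups did not overlap, so that positive CFPAC-1 cells fell between the 2 SW1990 groups. The log2 difference was 0.92 in SW1990 (SE 0.12, adjusted p = 8.59e-05), and it passed 2-fold without SW1990 negative replicate 3 (1.01) or SW1990 positive replicate 1 (1.04). In CFPAC-1 EHF fell by 0.71 (SE 0.12, adjusted p = 0.000755), and the adjusted p was at most 0.00503 over 22 other fits. The difference between the changes was 1.63 (SE 0.16, adjusted p = 3.87e-05).

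KLF5 and KLF4 changed less. KLF5 (chr13:73629114-73651679, plus strand), a factor of proliferating gut epithelium, had the highest level of the 10 in every group. SW1990 gave 104, 93.0 and 104 RPKM in negative and 136, 167 and 156 RPKM in positive samples, whereas CFPAC-1 gave 227, 247 and 247 RPKM in negative and 184, 200 and 156 RPKM in positive samples. Neither line had overlapping groups, and the direction was opposite. KLF5 rose by 0.60 on the log2 scale in SW1990 (SE 0.11, adjusted p = 0.00131) and fell by 0.42 in CFPAC-1 (SE 0.11, adjusted p = 0.0108), a difference of 1.03 (SE 0.15, adjusted p = 0.000555). Both changes kept an adjusted p under 0.05 in 22 of 22 other fits. KLF4 (chr9:110247133-110252763, minus strand), a factor of differentiated gut and skin epithelium, was at 13.7, 11.0 and 13.2 RPKM in negative and 19.1, 21.8 and 19.6 RPKM in positive SW1990 samples, which did not overlap. In CFPAC-1 the KLF4 groups overlapped widely, at 15.0, 27.9 and 22.8 RPKM in negative and 32.1, 25.6 and 19.9 RPKM in positive samples. The log2 difference of KLF4 was 0.68 in SW1990 (SE 0.21, adjusted p = 0.0322), with an adjusted p over 0.05 in 7 of 22 other fits. These included the fits without SW1990 negative replicate 2 or 3 (0.106 and 0.0674), without SW1990 positive replicate 1, 2 or 3 (0.0600, 0.0931 and 0.0711) and with the replicate number as a block. In CFPAC-1 it was 0.26 (SE 0.21, adjusted p = 0.371), and the changes of KLF4 in the lines were not shown to differ (0.42, 95% interval -0.24 to 1.08, adjusted p = 0.333).

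TP63 (chr3:189349178-189615065, plus strand) stood apart from the other 9 factors. It was at 3.42, 4.70 and 4.91 RPKM in negative and 2.09, 4.17 and 2.60 RPKM in positive SW1990 samples, on 264 to 714 reads. CFPAC-1 samples held 2, 0 and 2 reads without and 8, 4 and 0 reads with the antigen, so TP63 was at or near the limit of the depth in that line. The SW1990 groups overlapped, with a log2 difference of -0.58 (SE 0.28, adjusted p = 0.145) that reached an adjusted p of 0.0419 (-0.85) without SW1990 positive replicate 2, the positive sample with the most TP63. All 6 CFPAC-1 counts were even numbers, and they may stand for fewer fragments than reads if both mates of a pair were counted. The size of any TP63 fold between the lines is therefore unreliable.

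The change with the antigen differed between the lines for 6 of the 10 factors at an adjusted p under 0.05 (OVOL1, ELF3, OVOL2, GRHL2, EHF and KLF5), against 26.9% of all genes in either direction. In each of the 6 the fitted change was larger in SW1990. EHF, ELF3 and KLF5 rose in SW1990 and fell in CFPAC-1, while GRHL2 and OVOL2 rose in both lines and OVOL1 rose in SW1990. Together EHF, ELF3 and KLF5 made up 88.9% of the summed RPKM of the 10 factors in negative SW1990, 81.7% in positive SW1990, 92.1% in negative CFPAC-1 and 84.2% in positive CFPAC-1 cells. The sum itself was 220, 424, 633 and 471 RPKM in these groups.

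The lines were also compared within each sorted population, which rearranges the same 4 group means. In GCTM-5 negative cells, 6 of the 10 factors were called lower in SW1990 than in CFPAC-1, against 15.0% of all genes, and 1 (TP63) was called higher, against 21.9%. The log2 differences, SW1990 minus CFPAC-1, were -3.86 for OVOL1 (SE 0.26, adjusted p = 8.07e-08), -3.32 for ELF3 (SE 0.18, adjusted p = 1.54e-08) and -1.99 for OVOL2 (SE 0.19, adjusted p = 1.99e-06). Smaller differences were those of GRHL2 (-1.55), KLF5 (-1.26) and EHF (-1.14), with adjusted p of 3.30e-06, 7.71e-07 and 2.71e-06. KLF4 was lower by less than 2-fold (-0.75, adjusted p = 0.00757). GRHL1 (-0.57, adjusted p = 0.0651) and GRHL3 (-0.60, adjusted p = 0.0780) did not pass. The adjusted p was under 0.05 in 3 of 20 other fits for GRHL1 and in 4 of 19 for GRHL3, including those with median centring (-0.76 and -0.78) and quantile normalization (-0.78 for both), and GRHL1 reached -0.87 without SW1990 negative replicate 3 (adjusted p = 0.00437). Without SW1990 positive replicate 1 the GRHL3 adjusted p was 0.0433.

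In GCTM-5 positive cells, 1 factor (ELF3) was called lower in SW1990, against 13.7% of all genes, and 1 (TP63) was called higher, against 14.8%. ELF3 differed by -1.33 (SE 0.18, adjusted p = 5.28e-05), and EHF was higher in SW1990 by 0.48 (SE 0.12, adjusted p = 0.00301), which is under 2-fold. For the grainyhead-like and OVOL genes no difference between lines passed, and the 95% intervals of the log2 difference were -0.13 to 0.98 for GRHL1, -0.12 to 0.57 for GRHL2, -0.48 to 0.75 for GRHL3, -0.44 to 0.69 for OVOL1 and -0.44 to 0.41 for OVOL2. These intervals allow differences of up to nearly 2-fold for GRHL1 and less for the others. KLF5 was at -0.23 (adjusted p = 0.0856), and at -0.33 with an adjusted p of 0.0145 without CFPAC-1 positive replicate 3. The size of the TP63 difference between lines depended on the pseudocount, since CFPAC-1 was near 0.

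**Figure D3:**
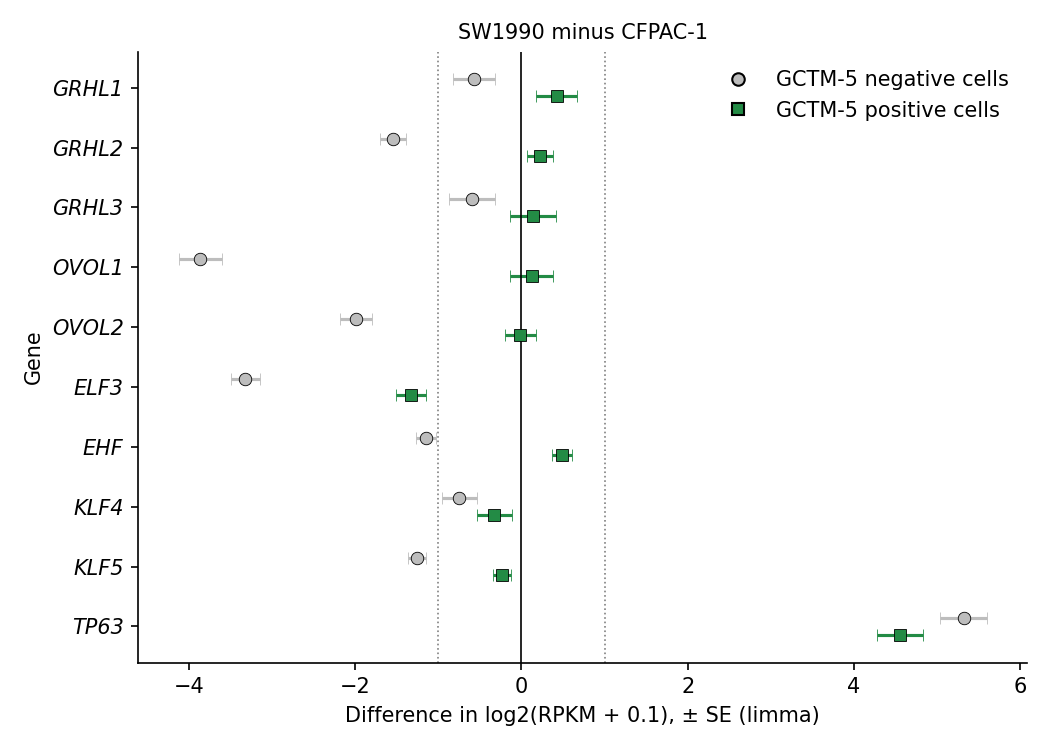
Difference in log2(RPKM + 0.1) between SW1990 and CFPAC-1 for the 10 factors, in GCTM-5 negative cells (circles) and GCTM-5 positive cells (squares). Bars are the standard error from limma, and dotted lines mark 2-fold. In negative cells 9 of 10 points lie below 0, whereas in positive cells the GRHL and OVOL genes lie between -0.01 and 0.42.

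RefSeq promoter sequences, 250 bases before to 50 bases after a start site, were found for 7 of the 10 factors as 10 promoters, and all 10 occurred once in GRCh37. They were searched on both strands for CAGGTG, the E-box that ZEB and SNAI factors bind, and for AACCNGTT, the grainyhead motif. An E-box was present in 2 of the 10, a GRHL3 promoter and the ELF3 promoter, and 20.6% of 34796 promoters of the table had one. The grainyhead motif was in 0 of the 10, beside 1.72% of all promoters. The windows are shown because both genes changed with the antigen, with the E-box, read on the plus strand as CACCTG, in capitals. The GRHL3 line is chr1:24645597-24645846 (plus strand, GRCh37), the bases upstream of a start site inside an intron of longer GRHL3 transcripts, with the E-box beginning 21 bases before the start site and a second one 10 bases into the transcript, which is not printed. The ELF3 line is chr1:201979583-201979612 (plus strand), 30 bases around an E-box that begins 120 bases before the start site, where exons of other ELF3 transcripts and of the opposite-strand ELF3-AS1 are annotated.
GRHL3 upstream: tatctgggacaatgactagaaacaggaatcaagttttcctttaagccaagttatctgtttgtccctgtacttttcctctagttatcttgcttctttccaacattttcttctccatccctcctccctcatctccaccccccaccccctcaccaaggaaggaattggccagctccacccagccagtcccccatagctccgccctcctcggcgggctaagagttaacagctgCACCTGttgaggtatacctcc
ELF3 E-box: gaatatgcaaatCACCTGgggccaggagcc
A motif match is a description of the letters and was not tested for binding.

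Effector genes of epithelial identity, among them known targets of these factors, were higher in positive SW1990 cells, and none was called in CFPAC-1. They are described over 14 genes of adhesion, junctions, splicing and surface proteolysis (CDH1, EPCAM, ESRP1, ESRP2, RAB25, CLDN4, CLDN7, ST14, SPINT1, SPINT2, PRSS8, TJP3, MARVELD2 and MARVELD3). In SW1990 14 of 14 were called higher in GCTM-5 positive cells, against 4.59% of all genes, with log2 differences of 1.57 to 4.24 and a median of 3.04 beside -0.04 over all genes. In CFPAC-1 0 of 14 were called in either direction, against 5.65% of all genes called higher and 4.13% lower, with a median of -0.15 beside 0.05 over all genes and a range of -0.83 to 0.77. At an unadjusted p under 0.05, 2 were higher and 4 lower there by limma and 3 and 6 by voom, and by limma's adjusted p 1 was higher (ESRP2) and 2 were lower (CLDN4 and SPINT1). The change differed between lines for 14 of 14, against 26.9% of all genes. CLDN4, a tight junction claudin with the highest mean of the 14 over all 12 samples, had a mean of 49.2 ± 14.7 RPKM in negative SW1990 cells and 419 ± 99.9 RPKM in positive ones (SD, n = 3 each). In CFPAC-1 the means were 1402 ± 111 and 843 ± 138 RPKM. Its log2 differences were 3.10 (SE 0.21) and -0.74 (SE 0.21, adjusted p = 0.0176), the latter not past the threshold without CFPAC-1 negative replicate 2 (0.0631) or CFPAC-1 positive replicate 1 (0.0719). SPINT2, an inhibitor of membrane serine proteases, had log2 differences of 1.57 (SE 0.14) and -0.33 (SE 0.14, adjusted p = 0.0745). In negative cells 13 of the 14 were called lower in SW1990 than in CFPAC-1, against 15.0% of all genes, with a median log2 difference of -3.22, and in positive cells the median was -0.37. Negative SW1990 cells had the lowest mean of the 4 groups for 14 of the 14 effector genes and for 9 of the 10 factors. The share of all genes with their lowest mean in this group was not counted, so these counts have no background beside them.

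Of the 7 factors that oppose epithelial identity, 6 could be tested, and TWIST1 was at 0 in all samples. In SW1990 3 of the 6 were called lower in positive cells, ZEB1 (-3.56), ZEB2 (-2.64) and SNAI1 (-1.81), against 7.48% of all genes, with a median log2 difference of -1.01 over the 6. The study had named ZEB1 and ZEB2 as higher in negative cells on these same samples, so their direction is not independent evidence. It named them after counting genes changed in both lines, whereas ZEB2 was not called here in CFPAC-1 (-0.71, adjusted p = 0.0786). ZEB1, the target of OVOL repression and the counterpart of GRHL2, had means of 32.0 ± 0.0686 RPKM in negative and 2.64 ± 0.307 RPKM in positive SW1990 cells (SD, n = 3 each). Negative CFPAC-1 cells had 6.79 ± 0.851 RPKM and positive ones 2.51 ± 0.0433 RPKM of ZEB1. Its CFPAC-1 change of -1.39 (SE 0.12, adjusted p = 1.91e-05) was the only one of the 6 called lower there, against 4.13% of all genes, and ZEB1 fell more in SW1990 than in CFPAC-1 by 2.17 (SE 0.17). In positive cells the ZEB1 difference between lines was 0.06, with a 95% interval of -0.20 to 0.32. TWIST2 alone of the 6 was called higher in positive CFPAC-1 cells, against 5.65% of all genes (1.28, SE 0.41, adjusted p = 0.0293), on 8 to 22 reads per sample without and 18 to 41 with the antigen, and had 0 reads in every SW1990 sample. Its adjusted p was over 0.05 in several other fits, among them those without CFPAC-1 negative replicate 2 or 3 (0.0886 and 0.117) and CFPAC-1 positive replicate 1 or 3 (0.0594 and 0.0929). SNAI1 was higher in positive CFPAC-1 cells by 0.82 (SE 0.28, adjusted p = 0.0377), opposite in sign to SW1990, and its adjusted p was over 0.05 without CFPAC-1 negative replicate 1 or 3 (0.0981 and 0.144) or CFPAC-1 positive replicate 1 or 2 (0.127 and 0.0882). SNAI2, with the highest mean of the list over all 12 samples though below ZEB1 in negative SW1990 cells, had differences of -0.21 (adjusted p = 0.647) in SW1990 and 0.37 (adjusted p = 0.348) in CFPAC-1, neither past the test.

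**Figure D4:**
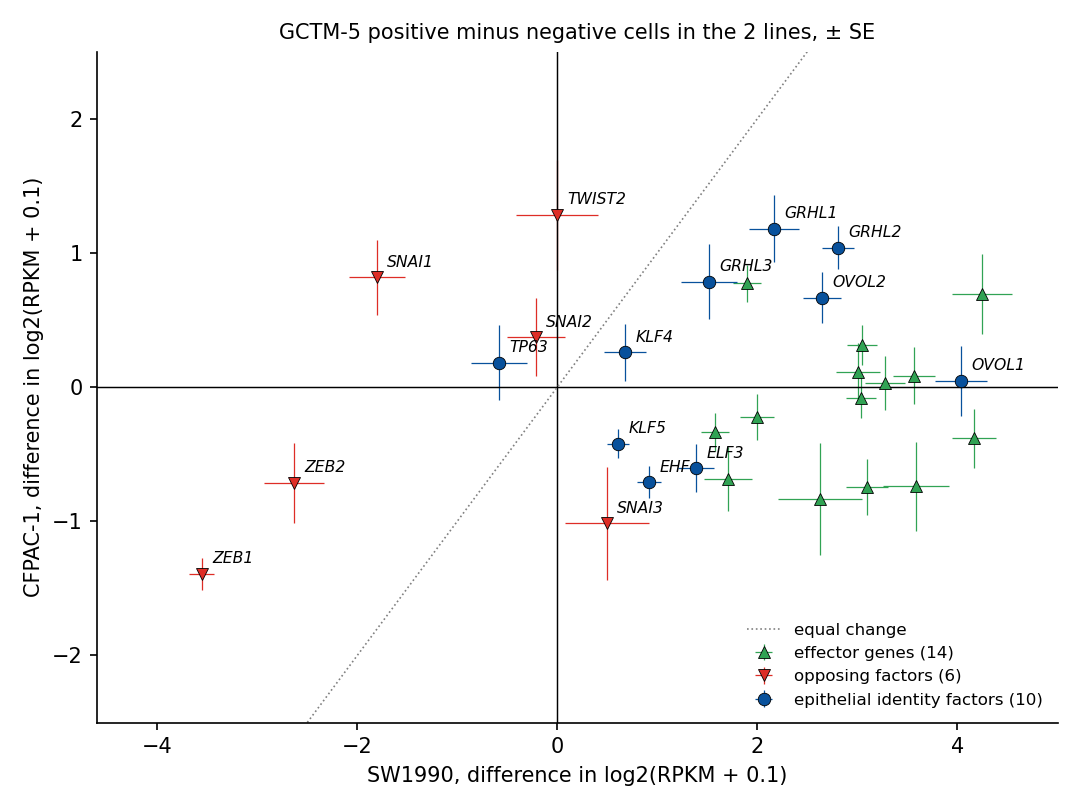
Difference in log2(RPKM + 0.1) between GCTM-5 positive and negative cells in SW1990 (horizontal axis) and CFPAC-1 (vertical axis) for the 10 epithelial identity factors (circles), 14 effector genes (upward triangles) and 6 opposing factors (downward triangles). Bars are standard errors from limma and the dotted line marks equal change. The effector genes lie between 1.57 and 4.24 in SW1990 and between -0.83 and 0.77 in CFPAC-1, and ZEB1 is at -3.56 and -1.39.

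Relatives of the 10 factors within their own families changed in both directions. They are described over 25 genes, of which 20 were tested. In SW1990 3 were called higher (ELF5, SPDEF and TFCP2L1) and 3 lower (KLF9, KLF12 and KLF13), against 4.59% and 7.48% of all genes, with a median of -0.22. In CFPAC-1 1 was called higher (TFCP2L1) and 1 lower (KLF9), with a median of -0.0027, and these counts are near the shares of all genes (5.65% and 4.13%). TFCP2L1, a member of the wider grainyhead superfamily, rose by 2.21 in SW1990 (SE 0.35) and by 1.97 in CFPAC-1 (SE 0.35), at levels of 0.0740 to 0.977 RPKM in SW1990 and 0.276 to 2.35 RPKM in CFPAC-1. Both TFCP2L1 changes were under 2-fold with a pseudocount of 1 (0.79 and 0.98). KLF9, a glucocorticoid-responsive Krüppel-like factor, fell by 2.43 (SE 0.32) and by 3.31 (SE 0.32), opposite in direction to KLF4 and KLF5 in SW1990, where its difference was -0.89 with a pseudocount of 1. KLF6 and KLF10, with the highest means of the list over all 12 samples, had differences of -0.43 (adjusted p = 0.0150) and -0.63 (adjusted p = 0.00593) in SW1990 and of -0.37 (adjusted p = 0.0265) and -0.40 (adjusted p = 0.0467) in CFPAC-1, all under 2-fold. The CFPAC-1 differences were not past the threshold in several other fits, with an adjusted p of up to 0.113 for KLF6 and 0.177 for KLF10, both without CFPAC-1 negative replicate 2, and the SW1990 value of KLF6 reached 0.0639 without SW1990 positive replicate 3. ELF5 and SPDEF, ETS factors like ELF3 and EHF, rose in SW1990 by 3.61 (SE 0.45) and 2.54 (SE 0.16). In CFPAC-1 SPDEF had a difference of -0.45 (SE 0.16, adjusted p = 0.0489), the sign of ELF3 and EHF there, and an adjusted p of 0.190 without CFPAC-1 positive replicate 1.

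Basal and squamous genes, which TP63 is known to control in stratified epithelium, were taken as a list of 13, of which 12 were tested. In SW1990 4 were called higher in positive cells (FAT2, KRT15, MIR205HG and TRIM29) and 1 lower (KRT14), against 4.59% and 7.48% of all genes, with a median of 0.49, although TP63 itself was not called. In CFPAC-1, where TP63 was near 0, 4 were called higher (DSG3, KRT5, MIR205HG and TRIM29) and 0 lower, against 5.65% and 4.13%, with a median of -0.13. At an unadjusted p under 0.05, 4 were lower there by limma as by voom. Some of these calls rested on few reads. KRT5 in CFPAC-1 had 0 to 8 reads per sample without and 9 to 102 with the antigen. KRT14 in SW1990 had 14 to 34 reads without and 3 to 10 with it. With a pseudocount of 0.01 limma's adjusted p was 0.154 for KRT14 in SW1990 and 0.0839 for DSG3 in CFPAC-1. DSG3 had been named by the study as higher in positive cells on these same samples, so its direction is not independent evidence. The study named it after counting genes changed in both lines, whereas DSG3 was not called here in SW1990 (0.83, adjusted p = 0.0812). MIR205HG, the host of miR-205, rose by 2.96 in SW1990 (SE 0.42), and its CFPAC-1 change of 1.57 (SE 0.42) rested on 2 to 7 reads per sample without and 11 to 17 with the antigen, and its adjusted p was 0.0551 without CFPAC-1 negative replicate 1, 0.0692 by voom, 0.0684 with each line fitted alone and 0.0581 with a pseudocount of 1. TRIM29 rose by 2.88 in SW1990 (SE 0.44) and had a difference of 1.41 in CFPAC-1 (SE 0.44), where the adjusted p was over 0.05 without CFPAC-1 negative replicate 1 or 3 (0.0940 and 0.0528) or CFPAC-1 positive replicate 1 or 2 (0.0603 and 0.0707). ITGA6 and ITGB4, the hemidesmosome integrins, with the highest means of the list over all 12 samples, had differences of -0.04 and 0.07 in SW1990, neither past the test. In CFPAC-1 ITGB4 was lower by less than 2-fold (-0.88, SE 0.11) and ITGA6 was at -0.37 (SE 0.11, adjusted p = 0.0210), which was not past the threshold with each line fitted alone (0.0763) or without CFPAC-1 negative replicate 3 (0.0694) or CFPAC-1 positive replicate 1 (0.0816).

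For each factor, genes with the most similar pattern were sought among genes with a mean of at least 1 RPKM, by the root mean square of the difference in log2 level over the 12 samples after centring each gene. This distance is a description over samples that share the 4 groups. GRHL1 was closest to CDA (0.243) and CCDC64 (0.273), and GRHL2 to CCDC64 (0.271) and EPN3 (0.283), so that CCDC64 stood near both. The closest to GRHL3 were ABLIM1 (0.245) and GLB1L2 (0.251). OVOL1 lay nearest to C1orf172 (0.193) and TMEM30B (0.302), and OVOL2 nearest to SLC39A4 (0.225) and EXPH5 (0.241). For the ETS factors the neighbours were PTPN3 (0.183) and SLC12A2 (0.207) for ELF3 and AIG1 (0.143) and FAM63B (0.144) for EHF. KLF4 was nearest to FAM188B (0.207) and HLA-F-AS1 (0.211), KLF5 to TEAD3 (0.0917) and SERPINB1 (0.127), and TP63 to TUB (0.264) and PCDHB3 (0.271). Among the 10 factors themselves the closest pairs were EHF with KLF5 (0.282) and GRHL2 with OVOL2 (0.299), while OVOL1 was 0.727 from OVOL2 and ELF3 was 0.854 from KLF5, its closest member. The distance is not scaled to how much a gene varies. The root mean square of the centred levels was 0.458 for EHF and 0.467 for KLF5, but 1.12 for GRHL2 and 1.11 for OVOL2. Relative to their own variation, GRHL2 and OVOL2 were thus the closer of these 2 pairs.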

How the data were processed

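RNA-seq of 12 samples was used, 3 in each of 4 groups set by cell line and GCTM-5 label. According to the paper, the authors mapped reads to the hg19 build (GRCh37), and their deposited RPKM values are QuasR read counts divided by gene length and library size, with 1 column per sample. The labels also list bcl2fastq and a strand-specific kit. The QuasR version, annotation, use of strand and treatment of multiply mapped reads are not given in the sources used here, and exons of GRHL1, GRHL2, OVOL1, ELF3 and KLF4 overlap opposite-strand genes in GENCODE 44. Scaling beyond library size is not described.

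The fit took the 16236 of 23346 genes whose mean RPKM reached 0.1, and log2(RPKM + 0.1) was fitted with limma 3.58.1 in R 4.3.3 (4 group means, eBayes with an intensity trend, 2-sided tests, Benjamini-Hochberg adjustment over all genes kept). The paper names TCC for its tests, which was not used here, and taking its threshold of 0.01 as an unadjusted p is a reading made here. Library totals and whole reads were recovered from the RPKM with the lengths of single-exon genes. For 19654 of 19654 genes above 0 the reads came out whole to within 0.01 of a read, and they summed to 99.928% to 99.958% of the totals. Whether a read pair counted as 1 read is not given in the sources used here. Per sample, 549 to 701 genes held 2 reads and 506 to 644 held 1, so a read need not be a separate fragment. Both steps were tested on simulated data. Python 3.11.15 with pandas 2.3.3, numpy 2.4.6 and matplotlib 3.10.9 did the rest.

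The 10 factors and the lists were chosen with earlier results of these data known, and 1 gene each of the effector and family lists is not reported here, so their counts cover the other genes alone. Named beside the factors are the genes called in both lines and the 2 most abundant of each list, the 2 genes nearest in pattern to each factor among genes averaging at least 1 RPKM, and the members behind any count of 5 or fewer, which were named after their values were seen. Alternatives were pseudocounts of 1 and 0.01, other filters, median centring, quantile normalization, voom on the recovered reads, eBayes without a trend, a separate fit for each line, a replicate block, other call thresholds and leaving out each of the 12 samples. Gene positions are those of GENCODE 44 on GRCh37. Promoter sequences are from RefSeq on GRCh38.p14, placed on GRCh37 by exact match, and promoters on chromosome 8 were not used here.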

Additional observations from a re-analysis of the deposited data

Results flagged for a closer look

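The change between GCTM-5 negative and positive cells differed between the lines, by limma's interaction contrast at an adjusted p under 0.05, for 6 of the 10 factors, against 26.9% of all genes tested. The difference, as the change in SW1990 minus that in CFPAC-1 on the log2 scale, was 3.99 for OVOL1, 1.99 for ELF3, 1.98 for OVOL2, 1.77 for GRHL2, 1.63 for EHF and 1.03 for KLF5. The 14 effector genes gave 4.55 for RAB25, 4.33 for PRSS8, 3.84 for CLDN4, 3.55 for MARVELD3, 3.48 for ESRP1, 3.46 for TJP3, 3.25 for ST14, 3.11 for EPCAM, 2.89 for CLDN7, 2.73 for CDH1, 2.39 for SPINT1, 2.22 for MARVELD2, 1.91 for SPINT2 and 1.13 for ESRP2. Of the opposing factors, 3 of the 6 tested differed, SNAI1 by -2.62, ZEB1 by -2.17 and ZEB2 by -1.92. Among the 20 family relatives tested, ELF5 (3.33), SPDEF (2.99) and KLF3 (0.64) lay above 0, while KLF12 (-1.72), KLF15 (-1.10), KLF11 (-1.09) and KLF7 (-0.89) lay below. Of the 12 basal and squamous genes tested, KRT15 (3.03), FAT2 (1.41), S100A2 (1.00) and ITGB4 (0.95) lay above 0 and KRT5 (-2.38) below. Among the cell type markers the values were 1.71 for KRT19, 0.69 for KRT8 and 0.59 for KRT18 of the duct list, -3.76 for PDGFRB, -2.70 for LUM and -1.05 for COL1A1 of the fibroblast list, -3.50 for CDH5 and -1.21 for CD68. The part of these marker shifts in the differences of the factors was not tested.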

How the results depend on the processing

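Over 22 other fits and 2 other call thresholds, 5 to 9 factors were higher in positive SW1990 cells (6 as reported), and over 21 alternatives 6 or 7 differed between lines. The CFPAC-1 count was less stable. Of the 2 factors called higher there, 0 were called with a pseudocount of 1 and 1 with median centring or quantile normalization. With an adjusted p at any fold, 4 factors were higher and 3 lower in CFPAC-1, 2 factors were higher in positive SW1990 than in positive CFPAC-1 cells, and 1 effector gene was higher in CFPAC-1. Leaving out each sample gave 1 to 2 factors called higher in CFPAC-1, 1 without CFPAC-1 negative replicate 1 or CFPAC-1 positive replicate 1, in each case through GRHL2. Opposing factors lower in CFPAC-1 numbered 2 with voom on the recovered reads (ZEB1 and ZEB2) and 1 to 2 when leaving out each sample (SNAI3 added without CFPAC-1 positive replicate 2). Signs turned only for differences far from the threshold. These were OVOL1 in CFPAC-1 (-0.05 with centring, -0.06 with quantile normalization, -0.17 to 0.17 without single samples, -0.03 among them), the KLF6 difference between lines (0.09 with centring, -0.16 to 0.02 without single samples, 0.01 among them), ITGA6 in SW1990 (0.01 with centring, -0.10 to 0.02 without single samples), SNAI2 in SW1990 (-0.56 to 0.03 without single samples) and the TFCP2L1 difference between lines (-0.19 with a pseudocount of 1, -0.21 to 0.53 without single samples). Between positive cells of the lines, GRHL3 ran from -0.07 to 0.42 without single samples (-0.03 among them), and OVOL2 was 0.01 with voom and ran from -0.15 to 0.09 (0.02 and 0.01 among them). The TP63 difference between lines ran from 2.39 to 8.63 in negative and from 1.91 to 6.67 in positive cells with the pseudocount. In all 1125 alternatives for single factors, 1092 stayed on the same side of the threshold with the same sign, 16 passed it, 7 lost it and 10 changed sign. The cause was not tested. Except for the difference between changes, this threshold was mostly the call, so changes under 2-fold could lose their adjusted p unseen. The adjusted p crossed 0.05 in 15 of 21 other fits for GRHL3 in CFPAC-1 and in 7 of 22 for KLF4 in SW1990. For OVOL2 and ELF3 in CFPAC-1 it did so in 4 of 22 each, and for EHF and KLF5 in 0 of 22 in either line. A filter at a mean of 1 RPKM removed GRHL3 from the fit. Median centring moved the share of CFPAC-1 calls that were higher from 57.8% to 45.8%. Whether replicate numbers pair samples could not be decided from the values, since weak correlations do not exclude pairing. Same-numbered samples had correlations of deviations of 0.18, 0.02 and 0.12 in SW1990 and -0.02, 0.00 and -0.06 in CFPAC-1. Samples with different numbers ran from -0.25 to 0.16 in SW1990 and from -0.03 to 0.04 in CFPAC-1. With the replicate block the counts of the 10 factors were 6 and 2 higher as without it, and all genes called were 749 higher and 1212 lower in SW1990 and 924 and 663 in CFPAC-1. Depth limits GRHL3 in all groups and TP63 in CFPAC-1.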
